A study of Homo sapiens with 18 samples.

Results

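The 55 genes described here encode the machinery that takes a cell from G2 through mitosis to 2 daughter cells, and they were taken by symbol from a matrix of 62754 genes. They comprise 6 genes of the cyclin-kinase core, 5 that set the inhibitory phosphorylation of CDK1, 5 for other mitotic kinases and the activator of one, 7 for ubiquitin ligase parts and sister separation, 3 for transcription factors and the proliferation marker Ki-67, 7 for chromosome condensation and DNA topology, 7 kinesin motors, 8 other spindle proteins and 7 for cytokinesis. All 55 were found once, and all 55 passed the filter on low counts that left 15167 genes for testing. The grouping followed the known role of each gene and used none of the measured values. The 55 genes themselves were chosen with earlier results of these data known, so the counts below describe the set and are no independent test of it. In the annotation used for the files' build (GRCh38) CDK1 lies at chr10:60778331-60794852 on the plus strand, PKMYT1 at chr16:2968024-2980479 on the minus strand, WEE1 at chr11:9573670-9593457 on the plus strand and SKP2 at chr5:36151989-36196849 on the plus strand, and counts cover the exons of each gene.

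Entry into mitosis is set by CDK1 bound to a B-type cyclin. WEE1 and PKMYT1 hold the kinase off by phosphorylating it, CDC25 phosphatases remove those phosphates, and PLK1 and AURKA help to tip the balance. The anaphase-promoting complex, with CDC20 and later FZR1 as its activators, then marks cyclins and securin for destruction, after which the cell divides and leaves mitosis. Most of these genes are transcribed in G2 and early mitosis under the control of FOXM1, MYBL2 and the MuvB complex, and their RNA is low in resting cells.

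RNA was sequenced from EA.hy926, a human endothelial line made by fusing umbilical vein endothelial cells with a lung carcinoma line. Mock cells received the transfection reagent alone, siNT cells a non-targeting siRNA at 10 nM and siELMO1 cells a pool of siRNAs against ELMO1 at 10 nM, so an effect of 1 siRNA of the pool cannot be told apart from an effect of ELMO1. All conditions shared a night in low serum before the start. The 0 h libraries were made 48 h after transfection without poly(I:C), a synthetic double-stranded RNA, and the 24 h libraries after 24 h with it at 1 μg/ml, with 3 libraries in each of the 6 conditions. No condition analysed here was kept for 24 h without poly(I:C), so the effect of poly(I:C) cannot be told apart from that of time after transfection or time in low serum. In bulk RNA, fewer cells in G2 and mitosis and less RNA per cell also cannot be told apart.

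The 18 libraries held 40.4 to 73.9 M estimated counts each, and the lowest count of any of the 55 genes in a library was 97. The target, ELMO1, had 10 to 22 counts in the 6 siELMO1 libraries and 80 to 237 in the other 12, or −3.11 (SE 0.28, adjusted p = 2.7e-08) on the log2 scale against siNT at 0 h and −3.64 at 24 h. Of 10 endothelial markers 9 reached a group mean of 1 CPM (counts divided by the TMM-scaled library size in M) in every condition; CLDN5 did not. The summed level of the endothelial markers was 1233 to 1340 CPM in Mock and 1415 to 1495 CPM in siNT at 0 h against 1860 to 1946 CPM in siELMO1. That of 8 epithelial markers was 1516 to 1538 CPM, 1879 to 1911 CPM and 2100.0 to 2224 CPM in the same order, and at 24 h it was 842 to 861 CPM, 1010.4 to 1056 CPM and 1098 to 1314 CPM. That of 6 smooth muscle and fibroblast markers was at most 31.0 CPM in any library; the part of these levels in the results below was not tested. Of the epithelial markers SFTPC, NKX2-1 and CDH1 were at 0 in every library, and EPCAM and KRT19 had means of 0.59 and 0.13 CPM over all libraries. The summed epithelial level therefore rested on KRT7, KRT18 and KRT8, with means of 746, 402 and 303 CPM. The siELMO1 libraries at 0 h differed among themselves: 1.86% of the counts were mitochondrial in replicate 1, against 4.02% and 3.95% in replicates 2 and 3. The libraries of the other conditions had 1.31% to 2.42%, so replicates 2 and 3 lay outside that range. These 2 also had the lowest totals of the series, 40.4 and 51.0 M. Over the 55 genes the level in replicate 1 had a median of 96% of the mean of replicates 2 and 3. It ran from 68.8% for MKI67 to 164.1% for PKMYT1, and 52 of 55 lay within 25% of that mean.

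At 0 h the whole mitotic set was low in siELMO1. All 55 genes were called lower in siELMO1 than in siNT, where 31.3% of all genes tested were called lower, and all 55 lower than in Mock, where 22.4% were. A gene was called at a Benjamini-Hochberg adjusted p under 0.05 in edgeR's quasi-likelihood test over all genes tested. With a fold change over 2 required as well, 52 of 55 remained against siNT (6.22% of all genes) and 50 of 55 against Mock (4.50%). The median log2 fold change of the 55 was −1.76 against siNT and −1.99 against Mock, beside 0.00 and 0.04 over all genes tested. In all 55 the 3 siELMO1 libraries lay below all 6 libraries of siNT and Mock, a pattern that 18.2% of all genes tested showed.

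**Figure D1:**
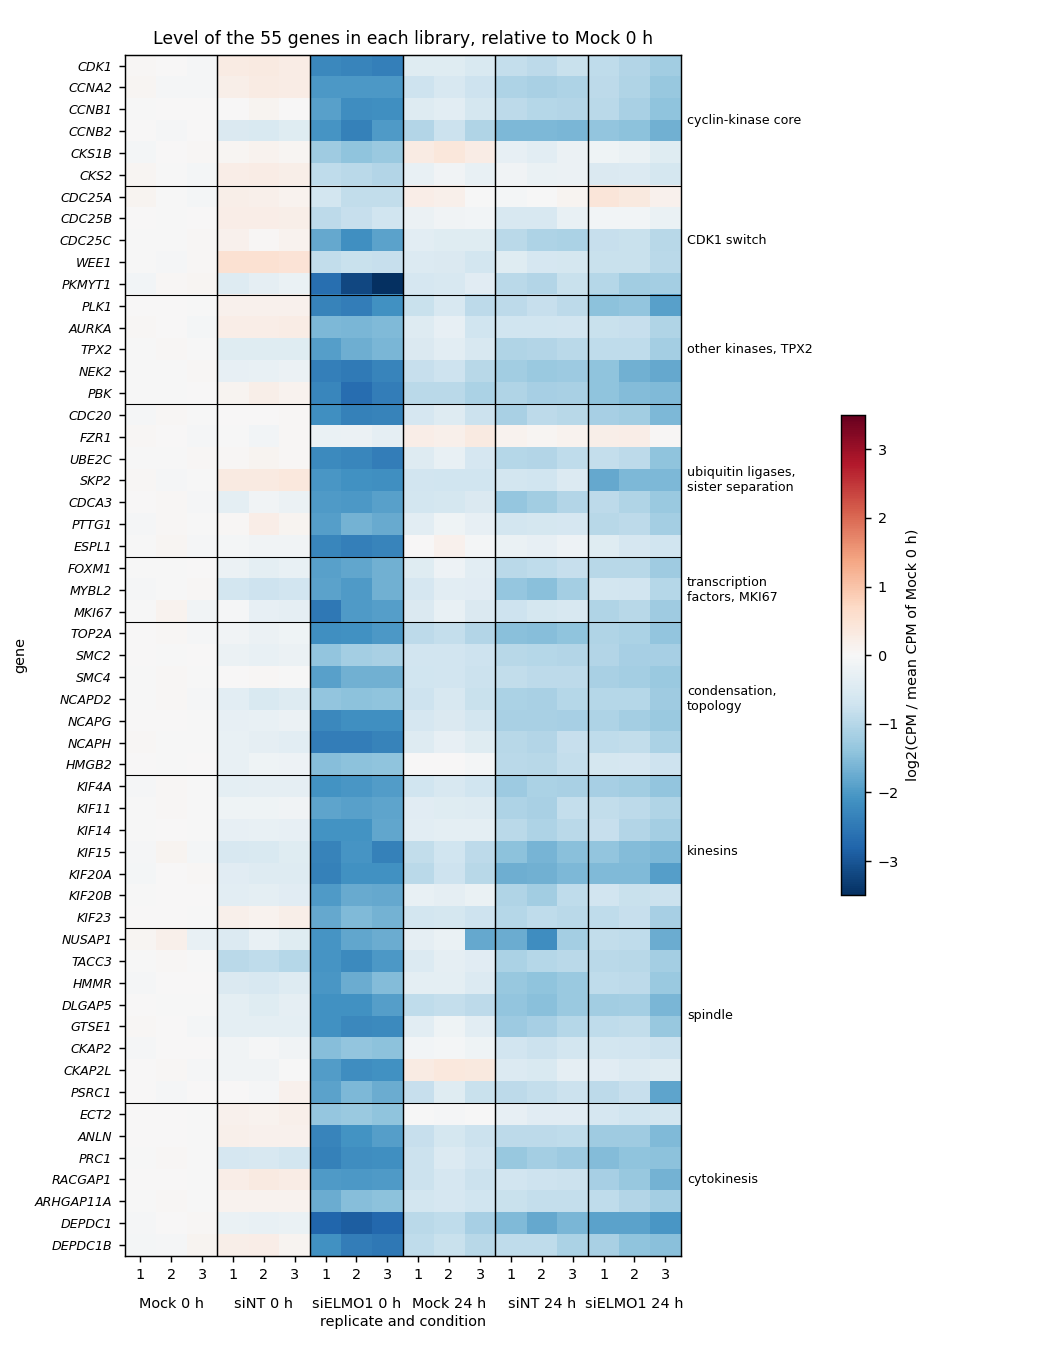
Heat map of the 55 genes (rows, grouped by role) in the 18 libraries (columns, by condition and replicate); colour gives the log2 ratio of the TMM-scaled CPM to the mean of the 3 Mock 0 h libraries. The 3 siELMO1 0 h columns are the darkest blue for nearly every gene, FZR1 being the palest, and the 24 h columns of siNT and siELMO1 look alike.

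Within the cyclin-kinase core the kinase and its cyclins differed more from control than the small subunits did. CDK1, the kinase that drives mitosis, had 24.3, 23.3 and 22.3 CPM in the siELMO1 libraries, 141, 145 and 140.5 CPM in siNT and 119, 117 and 113 CPM in Mock, which is −2.61 (SE 0.07, adjusted p = 1.2e-14) against siNT. CCNB1, the B-type cyclin that activates it, had 41.5, 34.4 and 35.2 CPM against 157, 165 and 159 CPM in siNT and 153, 157 and 157 CPM in Mock (−2.11, SE 0.10, adjusted p = 2.9e-12 against siNT). For both genes the lowest control library was more than 3 times the highest siELMO1 library. CCNA2 and CCNB2 had log2 fold changes against siNT of −2.27 and −1.65, and the CDK-binding subunits CKS1B and CKS2 had the smaller values of −1.40 and −1.18.

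The genes that set the phosphorylation of CDK1 differed widely from one another. PKMYT1, an inhibitory kinase, had the lowest level relative to control of all 55 genes: 6.44, 4.44 and 3.41 CPM in siELMO1, 29.2, 32.4 and 34.5 CPM in siNT and 37.4, 41 and 42 CPM in Mock, or −2.72 (SE 0.15, adjusted p = 4.7e-11) against siNT. WEE1, the other inhibitory kinase, had 24.4, 26 and 25.6 CPM in siELMO1, 65, 64.5 and 62.4 CPM in siNT and 44.6, 43.4 and 45.8 CPM in Mock, so its value of −1.34 (SE 0.06, adjusted p = 5.2e-12) against siNT was larger than that of −0.82 (SE 0.06, adjusted p = 7e-09) against Mock. Of the activating phosphatases, CDC25C fell most, with 7.41, 5.82 and 7.02 CPM against 28.6, 26.4 and 28.2 CPM in siNT and 25.5, 25.6 and 26.4 CPM in Mock (−2.03 and −1.93 on the log2 scale). CDC25A and CDC25B, which also act at earlier points of the cycle, had −0.95 and −1.03 against siNT and −0.78 and −0.81 against Mock. In CPM, CDC25A had 16.4, 14.2 and 14 in siELMO1 against 29.5, 28.8 and 28.2 in siNT, and CDC25B had 113, 121 and 131 against 251, 250.1 and 244. Thus within one small group the log2 fold change against siNT ranged from −2.72 to −0.95.

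Among the other kinases, PLK1, which acts at entry, at the spindle and in cytokinesis, had 27.6, 25.8 and 32 CPM in siELMO1, 154, 153 and 153 CPM in siNT and 139, 139 and 137 CPM in Mock (−2.43, SE 0.11, adjusted p = 4e-12 against siNT). AURKA, which matures the centrosomes, had 45.8, 44.6 and 46.2 CPM against 158, 160.4 and 163 CPM in siNT and 139, 138 and 129.8 CPM in Mock (−1.82 against siNT). Neither gene had overlapping groups. PBK and NEK2 had log2 fold changes of −2.58 and −2.14 against siNT, and TPX2, which activates AURKA on the spindle, had −1.31.

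The activators of the anaphase-promoting complex parted. CDC20, which works at metaphase, had 36.6, 31.3 and 32 CPM in siELMO1, 165, 162 and 166 CPM in siNT and 156, 169 and 162 CPM in Mock (−2.30, SE 0.10, adjusted p = 1.3e-12 against siNT). FZR1, which works in late mitosis and G1, had 46.9, 47.6 and 44.5 CPM in siELMO1, 54.2, 51.5 and 56.5 CPM in siNT and 56.1, 55.7 and 53.2 CPM in Mock, and its −0.22 (SE 0.06, adjusted p = 0.0026) against siNT was the smallest value of the 55. With replicates 2 and 3 of siELMO1 at 0 h left out, it was −0.20 (adjusted p = 0.051, edgeR), where 1 library is left and is assumed to vary like the other conditions. SKP2, the substrate receptor of another ubiquitin ligase, had 10.3, 9.76 and 9.49 CPM in siELMO1, 52.5, 52 and 54.5 CPM in siNT and 43.7, 40.6 and 42 CPM in Mock (−2.43, SE 0.07, adjusted p = 2e-14 against siNT). The ubiquitin-conjugating enzyme UBE2C, the separase gene ESPL1, the securin gene PTTG1 and CDCA3, which promotes the loss of WEE1, had −2.36, −2.21, −1.91 and −1.74 against siNT.

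The transcription factors FOXM1 and MYBL2 were lower too. FOXM1 had 56.6, 59.6 and 65.9 CPM in siELMO1, 181, 166 and 174 CPM in siNT and 207, 209.6 and 212 CPM in Mock (−1.52, SE 0.08, adjusted p = 2.1e-11 against siNT), and MYBL2 had −1.17 against siNT and −1.84 against Mock. MKI67, which encodes the Ki-67 protein that coats mitotic chromosomes, had 65.8, 94 and 97.4 CPM in siELMO1, 359, 302 and 302 CPM in siNT and 371, 404 and 341 CPM in Mock (−1.91 against siNT). Its lowest siELMO1 value was in replicate 1.

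Of the chromatin proteins, TOP2A, the topoisomerase that untangles sister chromatids, had 120.1, 123 and 133 CPM in siELMO1, 489, 464 and 479 CPM in siNT and 536, 544 and 522 CPM in Mock (−1.93, SE 0.07, adjusted p = 3.3e-13 against siNT). NCAPH, a subunit that belongs to condensin I alone, had 10.2, 10.2 and 10.9 CPM against 45.7, 43.9 and 42.5 CPM in siNT and 56, 54.1 and 54.3 CPM in Mock (−2.08, SE 0.07, adjusted p = 1.7e-13 against siNT). The other condensin I subunits NCAPG and NCAPD2 had −1.92 and −0.96, the ATPase subunits SMC4 and SMC2 −1.76 and −1.01, and the chromatin protein HMGB2 −1.25. The fold changes of the 5 condensin subunits, all parts of 1 complex, thus ran from −2.08 to −0.96.

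The 7 kinesins lay in a narrow range, with log2 fold changes against siNT from −1.84 for KIF23 to −1.48 for KIF20B. KIF11, the motor that pushes the spindle poles apart, had 46.6, 45.3 and 46.9 CPM in siELMO1, 151, 152 and 155 CPM in siNT and 165, 172 and 168 CPM in Mock (−1.72 against siNT). KIF20A, a motor of the central spindle, had 30.7, 36.2 and 36.2 CPM against 121, 115 and 115 CPM in siNT and 152, 161 and 162 CPM in Mock (−1.77). The other motors were KIF4A (−1.71), KIF14 (−1.71) and KIF15 (−1.76).

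For the 8 other spindle proteins the median against siNT was −1.60 on the log2 scale. The largest was that of CKAP2L (−1.98), a microtubule-binding protein, followed by GTSE1 (−1.85), PSRC1 (−1.76), DLGAP5 (−1.71), NUSAP1 (−1.49), CKAP2 (−1.34), HMMR (−1.25) and TACC3 (−1.16). Against Mock TACC3, which crosslinks kinetochore fibres, had −2.10; siNT itself was lower than Mock for this gene.

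The cytokinesis genes had a median of −2.26 against siNT, the largest of the 9 groups, and of −2.11 against Mock, where the other mitotic kinases had −2.28. ANLN, the scaffold of the cleavage furrow, had 54.5, 63.5 and 71.1 CPM in siELMO1, 306, 305 and 302 CPM in siNT and 273, 277 and 268 CPM in Mock (−2.27, SE 0.09, adjusted p = 4.4e-13 against siNT). RACGAP1, which with KIF23 forms the centralspindlin complex, had 32.6, 31.9 and 32.6 CPM against 151, 160.1 and 154 CPM in siNT and 128, 129 and 128 CPM in Mock (−2.26). ECT2, an exchange factor needed for cytokinesis, had 94.7, 97.8 and 91.4 CPM against 269, 260.1 and 273 CPM in siNT and 243, 243 and 237 CPM in Mock (−1.50). ECT2 was the least changed of its group, and DEPDC1 and DEPDC1B the most (−2.57 and −2.51), with PRC1 (−1.63) and ARHGAP11A (−1.68) in between.

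Many of these genes share a promoter layout. RefSeq windows from 250 bases before to 50 bases after the start (GRCh38.p14) were matched by symbol for 46 of the 55 genes. They were searched on both strands for the cell cycle genes homology region (CHR, which is either TTTGAA or its variant TTCGAA), the element bound by the MuvB complex, for the CCAAT box, spelled by its name and bound by NF-Y, and for 4 forms of the E2F site (spelled TTCCCGC in one form, TTGGCGC in another, and with the same search TTGCCGC besides the related TTCGCGC). Overlap is possible, since an E2F match read on the other strand can share bases with a CCAAT box. The CHR letters were in at least 1 window of 34 of the 46 genes (73.9%) and of 19.5% of the 27305 genes with a window. CCAAT was found for 35 of 46 (76.1%) and for 39.7% of all, and an E2F form for 13 of 46 (28.3%) and for 15.3% of all. In 20 of the 46 genes the CHR letters began between 45 and 10 bases before the start, a position found for 2.50% of all genes; this range was chosen after the positions were seen. The genes without a window were WEE1, PBK, AURKA, TPX2, HMGB2, FOXM1, RACGAP1, PKMYT1 and UBE2C.

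The 7 promoter stretches printed here, from 100 bases before to 10 after the start, show the layout in genes of different roles and its absence from a pair of windows, with every match in capitals.
CCNB2: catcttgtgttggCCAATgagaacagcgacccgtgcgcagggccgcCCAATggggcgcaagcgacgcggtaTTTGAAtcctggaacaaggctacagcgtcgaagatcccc
PLK1: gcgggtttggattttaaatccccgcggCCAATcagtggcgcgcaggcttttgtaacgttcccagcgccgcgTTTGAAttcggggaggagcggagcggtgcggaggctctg
KIF11: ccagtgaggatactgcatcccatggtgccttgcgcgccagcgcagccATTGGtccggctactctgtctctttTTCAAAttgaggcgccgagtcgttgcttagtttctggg
PRC1: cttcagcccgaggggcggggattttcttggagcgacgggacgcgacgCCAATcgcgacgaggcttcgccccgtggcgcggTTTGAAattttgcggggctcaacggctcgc
DEPDC1: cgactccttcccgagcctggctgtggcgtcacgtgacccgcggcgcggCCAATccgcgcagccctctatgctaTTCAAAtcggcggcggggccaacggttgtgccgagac
CDC25A: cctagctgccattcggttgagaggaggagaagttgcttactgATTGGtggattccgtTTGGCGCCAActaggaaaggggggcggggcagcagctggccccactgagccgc
SKP2: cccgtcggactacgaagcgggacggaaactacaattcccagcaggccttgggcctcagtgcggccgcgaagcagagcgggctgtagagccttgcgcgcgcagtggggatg
These stretches came from RefSeq's GRCh38.p14: CCNB2 at chr15:59105046-59105155, plus strand, PLK1 at chr16:23678789-23678898, plus strand, KIF11 at chr10:92593030-92593139, plus strand, PRC1 at chr15:90994526-90994635, minus strand, DEPDC1 at chr1:68497073-68497182, minus strand, CDC25A at chr3:48188408-48188517, minus strand, and SKP2 at chr5:36152011-36152120, plus strand. In CCNB2, PLK1, KIF11, PRC1 and DEPDC1 a CCAAT box was followed by the CHR letters, which began 29, 29, 28, 20 and 27 bases before the start. The CDC25A window held overlapping E2F forms and CCAAT but no CHR letters, and the SKP2 window held none of the 3 motifs, which says only that these letters are not in this window. The median log2 fold change against siNT at 0 h was −1.75 for the 34 genes with the CHR letters and −1.84 for the 12 without them, and over 24 h in siELMO1 it was 0.78 and 0.85.

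Between 0 h and 24 h the set rose in siELMO1. Of the 55 genes 52 were called higher at 24 h, where 28.0% of all genes tested were, and 15 of them by more than 2-fold (7.71% of all genes). The median log2 fold change was 0.78, beside 0.00 over all genes tested, and the median level at 24 h was 171.3% of the level at 0 h. In 52 genes all 3 libraries at 24 h lay above all 3 at 0 h, as did 28.7% of all genes tested; PSRC1, WEE1 and SMC2 were the exceptions. None was called lower by edgeR, DESeq2 or limma-voom, and 0 were lower at an unadjusted p under 0.05, while 26.9% of all genes were called lower.

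**Figure D2:**
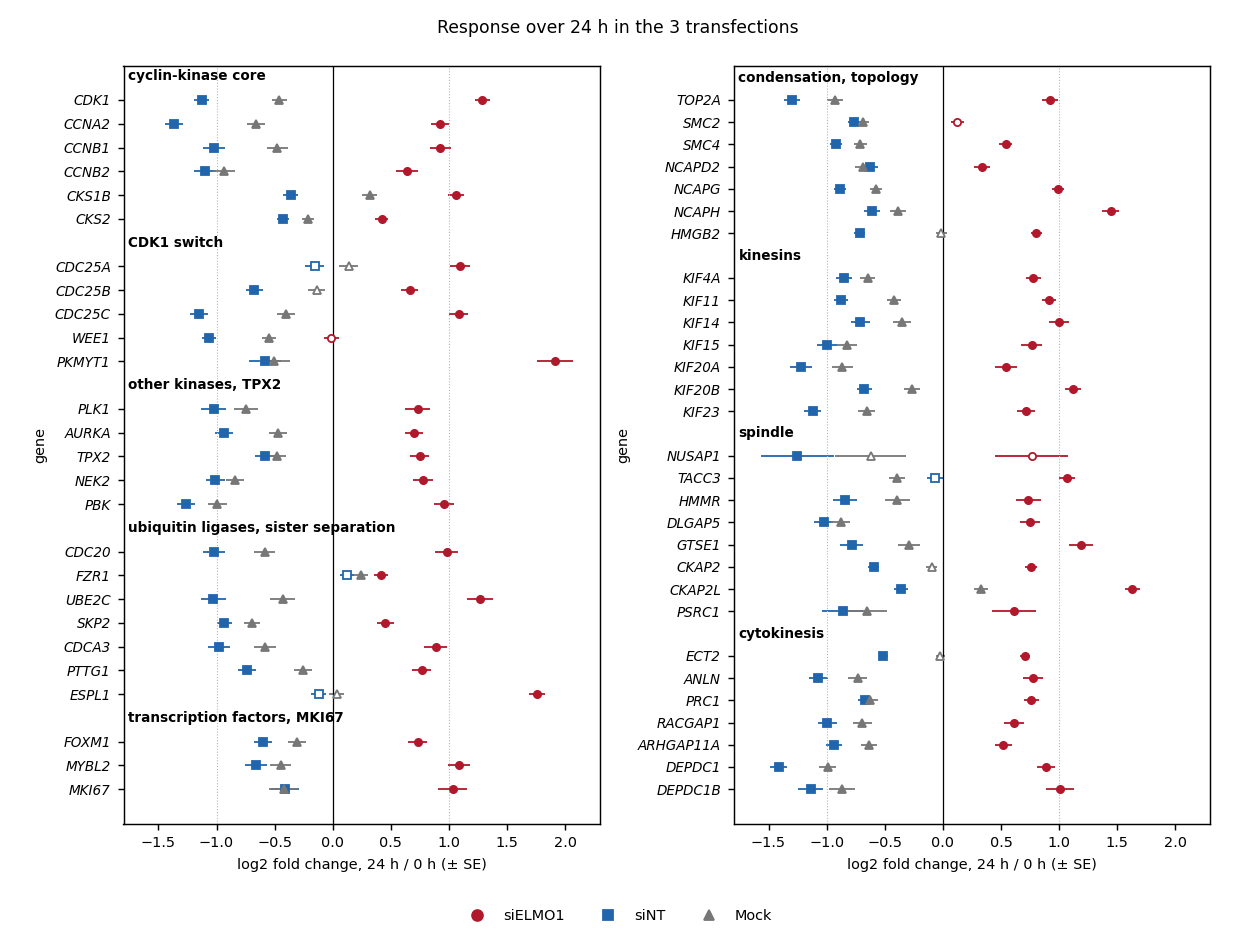
Log2 fold change from 0 h to 24 h (± SE, edgeR) for each of the 55 genes in siELMO1 (red circles), siNT (blue squares) and Mock (grey triangles), filled where the adjusted p was under 0.05; dotted lines mark 2-fold. The red points lie to the right of 0 for all genes but WEE1, with PKMYT1 at 1.91 farthest, and the blue points lie to the left for all but FZR1.

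PKMYT1, the gene that had been lowest, rose most, to 19.9, 17.2 and 17.5 CPM (1.91, SE 0.15, adjusted p = 7.8e-09), and WEE1, its partner in the inhibition of CDK1, stayed at 25.9, 26.2 and 23.2 CPM (−0.01, SE 0.06, adjusted p = 0.89). The phosphatases on the opposite side of the switch all rose, CDC25A to 34.7, 32.2 and 28.6 CPM (1.10, SE 0.08, adjusted p = 5.2e-09), CDC25B to 198, 198 and 179.8 CPM (0.66) and CDC25C to 14.6, 15.2 and 13.3 CPM (1.08). WEE1 was thus the exception in its group, with 24 h libraries on both sides of the 0 h values.

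CDK1 rose to 63.2, 57.3 and 50.2 CPM (1.29, SE 0.07, adjusted p = 3.4e-11) and CCNB1 to 81.7, 70.5 and 59 CPM (0.93). In both, replicate 3 was the lowest of the 24 h libraries and still above every 0 h library. CCNA2 (0.92), CCNB2 (0.64), CKS1B (1.06) and CKS2 (0.42) rose as well, CKS2 least. PLK1 rose to 50.9, 53.4 and 37.2 CPM (0.73, SE 0.11, adjusted p = 2.2e-05), AURKA to 78.6, 76.9 and 65.9 CPM (0.70), and TPX2, NEK2 and PBK rose by 0.75, 0.78 and 0.95 on the log2 scale.

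In the ubiquitin ligase group ESPL1, the protease that cuts cohesin at anaphase, rose most after PKMYT1 over the whole set (1.76, SE 0.07, adjusted p = 6.1e-13). CDC20 rose to 72.5, 69.5 and 55.1 CPM (0.98) and FZR1 to 63.2, 65.2 and 56.8 CPM (0.42). SKP2 rose to only 12.2, 14.2 and 14.1 CPM (0.45, SE 0.07, adjusted p = 3e-05). The other members were UBE2C (1.27), CDCA3 (0.89) and PTTG1 (0.76). FOXM1 rose to 106, 108 and 87.9 CPM (0.73), MYBL2 by 1.09 and MKI67 to 181, 188 and 156 CPM (1.03).

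The condensin subunits again differed within the complex. NCAPH rose to 29.5, 30.02 and 25.4 CPM (1.44, SE 0.07, adjusted p = 1.5e-11), NCAPG by 0.99, SMC4 by 0.54 and NCAPD2 by 0.34 on the log2 scale. SMC2 had 82.1, 92.3 and 96.6 CPM at 0 h and 104, 95.7 and 95 CPM at 24 h, and its 0.12 (SE 0.05, adjusted p = 0.058) on the log2 scale was not called. TOP2A rose to 259, 247 and 205 CPM (0.92) and HMGB2 by 0.80.

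All 7 kinesins rose, from 0.54 for KIF20A to 1.12 for KIF20B on the log2 scale, KIF11 to 92.3, 88.4 and 80.6 CPM and KIF20A to 53.9, 54.5 and 41.3 CPM. Of the other spindle proteins CKAP2L rose most (1.63, SE 0.06, adjusted p = 4.5e-13), ahead of GTSE1 (1.19) and TACC3 (1.07). PSRC1, with 3.91, 4.79 and 4.31 CPM at 0 h and 7.54, 8.20 and 3.97 CPM at 24 h, was called higher although replicate 3 at 24 h lay within the 0 h range. The 7 cytokinesis genes rose by 0.52 (ARHGAP11A) to 1.01 (DEPDC1B), with ANLN at 115, 115 and 93 CPM, RACGAP1 at 57, 50.7 and 40.5 CPM and ECT2 at 159, 149 and 156 CPM at 24 h.

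The rise did not bring the set back to where the control cells had started. At 24 h the siELMO1 libraries of 51 of the 55 genes still lay below all 0 h libraries of siNT and Mock, as did 25.4% of all genes tested, and the median level was 52.5% of siNT 0 h and 48% of Mock 0 h. The 4 exceptions were MYBL2, TACC3, CDC25A and FZR1. CDC25A stood at 111% of its siNT 0 h level, whereas SKP2, the lowest, stood at 25.5%.

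In the control cells these transcripts fell over the same time. The paper reports massive cell death in siNT cells under poly(I:C), much less in Mock, and inhibition of apoptosis in siELMO1 cells. The part of cell death in the falls below was not tested. In siNT 51 of 55 genes were called lower at 24 h than at 0 h (25.2% of all genes tested), 19 of them by more than 2-fold (2.97%), with a median log2 fold change of −0.88. In Mock 45 were called lower (29.6% of all genes) and 3 higher (30.7%), with a median of −0.50. CDK1 fell to 65.8, 61.6 and 67.9 CPM in siNT (−1.13, SE 0.07, adjusted p = 1.6e-10) and 86.8, 86.1 and 80.6 CPM in Mock (−0.46), and CCNB1 to 82.4, 78.3 and 76.2 CPM (−1.02) and 113, 121 and 102 CPM (−0.48). The largest falls in siNT were those of DEPDC1 (−1.41) and CCNA2 (−1.36), and in Mock those of PBK (−0.99) and DEPDC1 (−0.99).

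A few genes did not pass the test in the controls. In siNT TACC3 (−0.07), ESPL1 (−0.12), CDC25A (−0.15) and FZR1 (0.12) were not called. The 3 genes called higher in Mock were CKAP2L (0.33), CKS1B (0.32) and FZR1 (0.24). The 7 not called in Mock were HMGB2 (−0.01), ECT2 (−0.02), ESPL1 (0.03), CKAP2 (−0.10), CDC25A (0.14), CDC25B (−0.14) and NUSAP1 (−0.62). ESPL1 and CDC25A were thus called in neither control and rose in siELMO1, ESPL1 from 22.5, 20.9 and 22.2 CPM to 81.5, 72.9 and 67.5 CPM.

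The difference between the responses was tested directly as an interaction. The log2 response was higher in siELMO1 than in siNT for all 55 genes (16.7% of all genes tested), with a median difference of 1.75, and higher than in Mock for 54 of 55 (13.8%), with a median of 1.39. PKMYT1 had the largest difference from siNT (2.50, SE 0.20, adjusted p = 4.3e-08), followed by CDK1 (2.42, SE 0.10, adjusted p = 1.7e-11), and FZR1 (0.29, SE 0.08, adjusted p = 0.0092) and CKS2 (0.85) had the smallest. Against Mock, PKMYT1 (2.41) and PBK (1.95) had the largest and WEE1 (0.53) and FZR1 (0.17, SE 0.08, adjusted p = 0.13) the smallest, FZR1 alone not being called. WEE1, flat in siELMO1, had responses of −1.06 in siNT and −0.55 in Mock.

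On the log2 scale, the rise in siELMO1 was a median of 48.4% of the closing of the gap to siNT and 62.5% of that to Mock, and the change in the control was the rest. The share against siNT was 93.5% for ESPL1, 76.6% for PKMYT1, 53.3% for CDK1 and 14% for SMC2. It was −1.19% for WEE1 and 142% for FZR1, the 1 gene whose siNT response was above 0. These shares are descriptions computed from the fitted values, with no test.

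**Figure D3:**
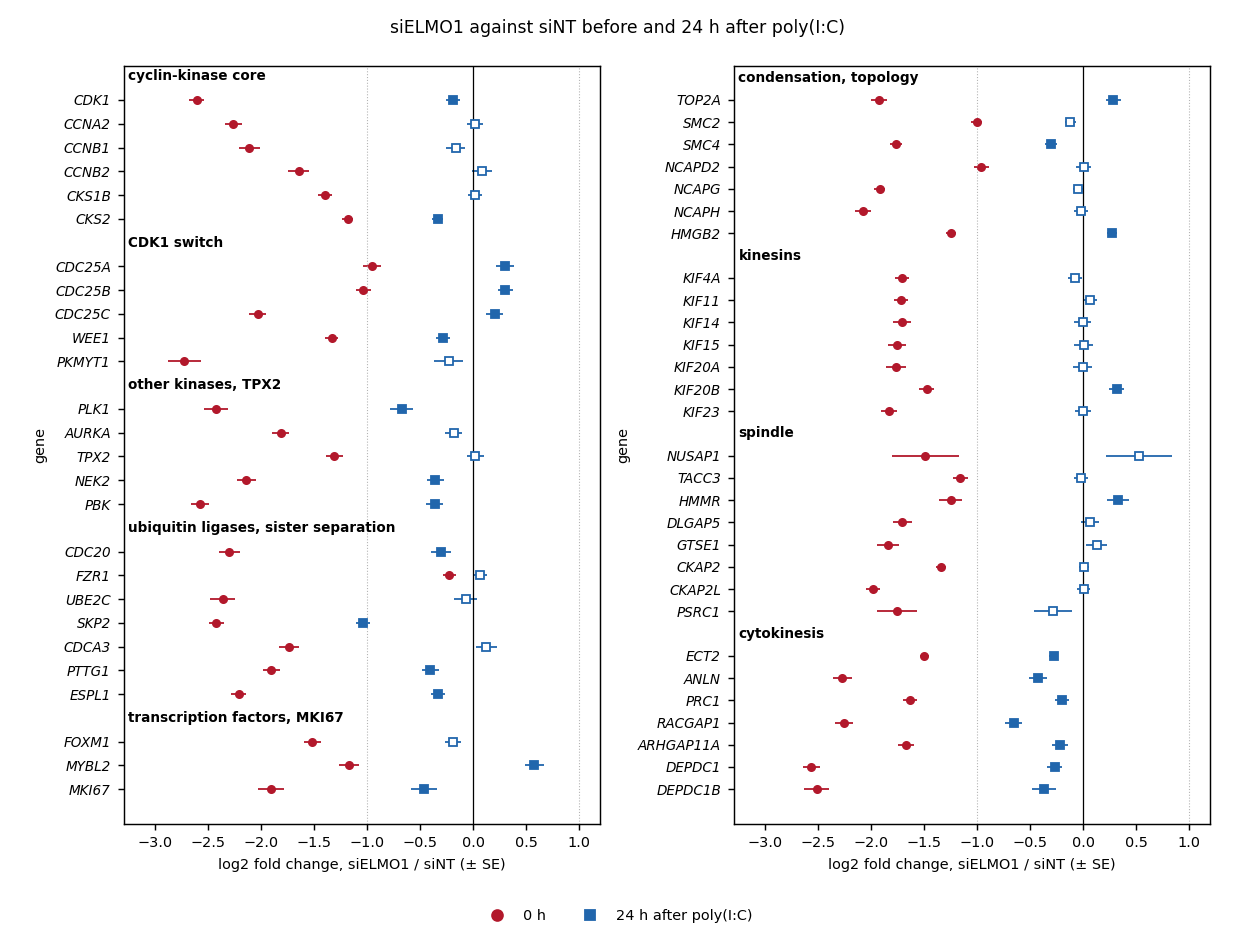
Log2 fold change of siELMO1 against siNT (± SE, edgeR) for each of the 55 genes at 0 h (red circles) and 24 h (blue squares), filled where the adjusted p was under 0.05; dotted lines mark 2-fold. Every red point lies left of 0 and the blue points scatter around 0, from SKP2 at −1.04 to MYBL2 at 0.58, with all 7 cytokinesis genes left of 0.

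At 24 h siELMO1 and siNT were close, while the median level in siELMO1 was 67.0% of Mock. The paper reports massive cell death in this siNT control. The part of cell death in the closeness to siNT was not tested. The median level in siELMO1 was 29.7% of siNT at 0 h and 96.7% at 24 h, and the median log2 fold change at 24 h was −0.05. With each library left out it ran from −0.11 to 0.01, turning positive without siELMO1 replicate 3 at 24 h. Of the 55 genes 19 were called lower in siELMO1 (26.5% of all genes tested), 8 higher (26.0%) and 28 in neither direction. The share of the 55 called lower was above that of all genes and the share called higher below it, with no test of either. SKP2 was the 1 gene lower by more than 2-fold (2.48% of all genes), at 12.2, 14.2 and 14.1 CPM against 26.9, 25.9 and 30.5 CPM in siNT and 26.2, 25.8 and 26.1 CPM in Mock (−1.04, SE 0.07, adjusted p = 1.5e-09 against siNT). It passed 2-fold no longer without siNT replicate 3 or siELMO1 replicate 1 at 24 h.

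Among the 19 genes lower than siNT at 24 h were the whole cytokinesis group and no motor. All 7 cytokinesis genes were called lower, from −0.20 for PRC1 to −0.66 (SE 0.08, adjusted p = 3.6e-06) for RACGAP1, and none of the 7 kinesins or 8 other spindle proteins was. RACGAP1 had 57, 50.7 and 40.5 CPM in siELMO1 against 80.2, 77.6 and 76 CPM in siNT and 76.1, 85.1 and 76.3 CPM in Mock, and ANLN had 115, 115 and 93 CPM against 144, 144 and 146 CPM in siNT and 155, 177 and 161 CPM in Mock (−0.42 against siNT). Neither overlapped with its controls. ECT2 (−0.28), ARHGAP11A (−0.22), DEPDC1 (−0.27) and DEPDC1B (−0.37) made up the group. The difference between roles was not tested.

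Outside that group, PLK1 remained lowest after SKP2, at 50.9, 53.4 and 37.2 CPM against 73.7, 78.8 and 73.5 CPM in siNT and 80.3, 94 and 73.4 CPM in Mock (−0.67, SE 0.11, adjusted p = 5e-05 against siNT). MKI67 (−0.46), PTTG1 (−0.40), PBK (−0.36), NEK2 (−0.35), CKS2 (−0.33), ESPL1 (−0.33), SMC4 (−0.31), CDC20 (−0.30), WEE1 (−0.28) and CDK1 (−0.19) were lower as well. The call of CDK1 was lost without siNT replicate 1 (adjusted p = 0.055, edgeR), siNT replicate 3 (0.077) or siELMO1 replicate 3 (0.13) at 24 h, and that of CDC20 without siNT replicate 2 (0.052) or siELMO1 replicate 3 (0.075). AURKA, at −0.18, was not called (adjusted p = 0.057, edgeR) but was with the replicate number as a block (0.036).

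The 8 genes higher than siNT at 24 h were MYBL2 (0.58, SE 0.09, adjusted p = 5.2e-05), HMMR (0.33), KIF20B (0.32), CDC25A (0.30), CDC25B (0.30), TOP2A (0.29), HMGB2 (0.27) and CDC25C (0.20). All 3 CDC25 phosphatases were therefore above siNT and WEE1 below it, while PKMYT1 was not called. Against Mock this split was not seen: CDC25C (73.4% of Mock) and WEE1 (82.2%) were both called lower, and CDC25A and CDC25B were not called. CDC25A had 34.7, 32.2 and 28.6 CPM in siELMO1 against 24.7, 25.4 and 27.6 CPM in siNT and 29.99, 29.3 and 25.3 CPM in Mock, and WEE1 25.9, 26.2 and 23.2 CPM against 33.2, 29.5 and 29.1 CPM in siNT. The call of CDC25C was lost without siNT replicate 2 (adjusted p = 0.11, edgeR), siNT replicate 3 (0.12), siELMO1 replicate 1 (0.093) or siELMO1 replicate 2 (0.14). The 28 not called were CCNA2, CCNB1, CCNB2, CKS1B, PKMYT1, AURKA, TPX2, UBE2C, CDCA3, FZR1, FOXM1, NCAPD2, NCAPG, NCAPH, SMC2, KIF4A, KIF11, KIF14, KIF15, KIF20A, KIF23, CKAP2, CKAP2L, DLGAP5, GTSE1, NUSAP1, PSRC1 and TACC3. KIF23 and KIF15 had the smallest values of the 55, both within 0.01 of 0 on the log2 scale. FOXM1 (−0.19, adjusted p = 0.051, edgeR) was called lower under 9 alternatives, limma-voom (0.047), library totals (0.013) and upper-quartile factors (0.048) among them.

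**Figure D4:**
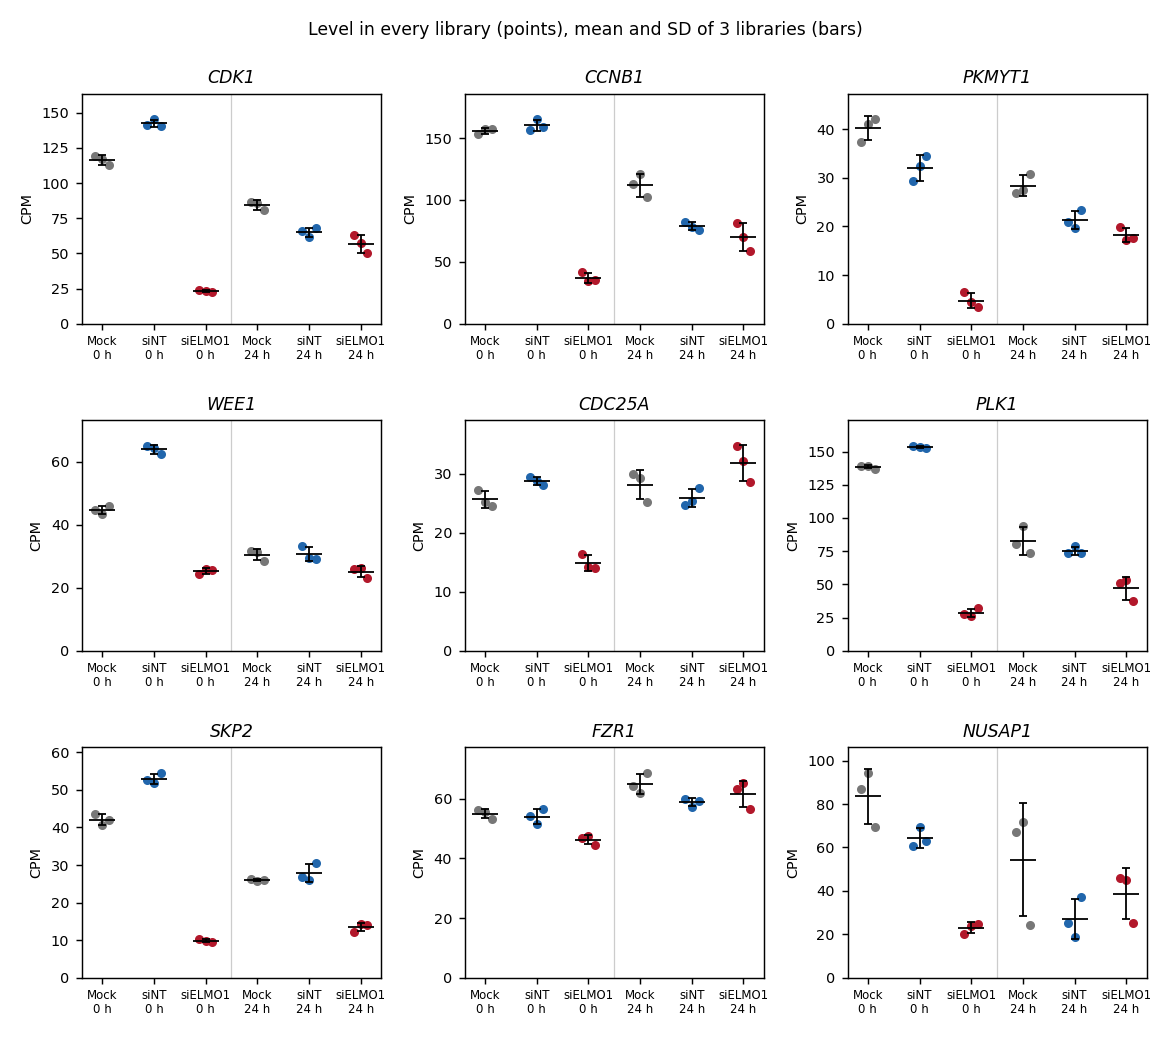
TMM-scaled CPM of 9 genes in each of the 18 libraries (points; grey Mock, blue siNT, red siELMO1), with the mean and SD of the 3 libraries of each condition. CDK1, CCNB1, PKMYT1 and PLK1 drop in siELMO1 at 0 h and rise while the controls fall, WEE1 stays flat in siELMO1, SKP2 remains low, CDC25A ends at or above the controls, FZR1 has the smallest drop at 0 h and NUSAP1 scatters at 24 h.

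Against Mock the set stayed lower. At 24 h 50 of the 55 genes were called lower in siELMO1 than in Mock (22.0% of all genes tested), 0 by more than 2-fold in edgeR, DESeq2 or limma-voom but 1 without Mock replicate 3 at 24 h, and the median level was 67.0% of Mock, up from 25.2% at 0 h. None was called higher by edgeR, DESeq2 or limma-voom, with 1 at an unadjusted p under 0.05. SKP2 (−0.95, SE 0.07, adjusted p = 6.9e-09) and DEPDC1 (−0.93) had the largest values. The 5 not called were CDC25A (0.18), CDC25B (−0.01), FZR1 (−0.08), PSRC1 (−0.45) and NUSAP1 (−0.48). PSRC1 was called with the replicate number as a block (adjusted p = 0.047, edgeR, in place of 0.051). CDC25A was called higher (0.25, adjusted p = 0.027, edgeR) without siELMO1 replicate 3 at 24 h, and TOP2A (−0.24) lost its call without that library (adjusted p = 0.051). In 21 of the 55 genes all siELMO1 libraries lay below all siNT and Mock libraries at 24 h, against 14.5% of all genes tested.

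The 2 control conditions also differed. At 0 h 21 of the 55 genes were called lower in siNT than in Mock (24.0% of all genes tested) and 9 higher (27.6%), with a median log2 fold change of −0.11. Without Mock replicate 2 or 3 at 0 h only 5 were called higher, and without Mock replicate 3 the median was −0.17. TACC3 (−0.94, SE 0.07, adjusted p = 5.4e-09) and MYBL2 (−0.67) had the largest values and WEE1 was the most raised (0.52, SE 0.06, adjusted p = 1.7e-06), while SMC4 (0.01) and CDC20 (0.02) had the smallest. The other 8 called higher were SKP2 (0.33), CDK1 (0.29), RACGAP1 (0.28), CCNA2 (0.25), AURKA (0.24), CKS2 (0.23), CDC25B (0.22) and ECT2 (0.15). Not called at 0 h were ANLN, ARHGAP11A, CCNB1, CDC20, CDC25A, CDC25C, CDCA3, CKAP2, CKAP2L, CKS1B, DEPDC1B, ESPL1, FZR1, KIF11, KIF23, MKI67, NUSAP1, PBK, PKMYT1, PLK1, PSRC1, PTTG1, SMC4, TOP2A and UBE2C. At 24 h 43 were called lower in siNT (24.9%), with a median of −0.50 and HMMR (−0.96) as the largest apart from NUSAP1 (−1.01). The response over 24 h was lower in siNT than in Mock for 30 genes (16.0% of all genes), led by CDC25C (−0.75) and CCNA2 (−0.70), and higher for 1 (14.9%), TACC3 (0.33, SE 0.10, adjusted p = 0.018). Of the 12 genes not called between siNT and Mock at 24 h, SKP2, PLK1, RACGAP1, ANLN, MKI67, PBK, DEPDC1B, CKS2, ARHGAP11A and WEE1 were called lower in siELMO1 than in both controls. CDC25A and PSRC1 were the remaining ones. The 12 were picked for not differing between the controls, so being lower than both is no separate result. The share of all genes under the same condition was not computed. The 24 genes whose response was not called different between siNT and Mock were CCNB2, CDC25A, DEPDC1B, DLGAP5, ESPL1, FOXM1, FZR1, KIF15, KIF4A, MKI67, MYBL2, NCAPD2, NCAPH, NEK2, NUSAP1, PBK, PKMYT1, PLK1, PRC1, PSRC1, RACGAP1, SKP2, SMC2 and TPX2.

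NUSAP1, which stabilises microtubules around the chromatin, was uncertain. It had 19.98, 23.9 and 24.9 CPM in siELMO1, 60.5, 69.3 and 62.9 CPM in siNT and 87, 94.3 and 69.6 CPM in Mock at 0 h, then 46, 45.1 and 25.1 CPM in siELMO1, 25.3, 18.5 and 37 CPM in siNT and 67, 71.7 and 24.3 CPM in Mock at 24 h, where the conditions overlapped. Its SE was the largest of the set, 0.30 to 0.32 on the log2 scale between conditions and between times. Its rise in siELMO1 of 0.76 (SE 0.32, adjusted p = 0.05) was called without siELMO1 replicate 3 at 24 h (0.99, adjusted p = 0.017, edgeR), and its value against Mock at 24 h became −0.84 (adjusted p = 0.010) without Mock replicate 3. The transcript NUSAP1-208 took 5.36% to 84.9% of the gene's estimated counts across libraries. For PKMYT1, KIF11 and PLK1 the share of the main transcript also varied widely, from 0.00% to 76.6%, 3.23% to 100.0% and 5.07% to 84.7%. Of the 55 genes, 29 overlap a gene on the other strand, and the sources used here do not state whether counting used strand. A named pseudogene exists for 19, with at most 4.07% of the parent's counts (CDC20).

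Other genes of the same families were counted from fixed lists. All 6 other mitotic kinesins were lower than siNT at 0 h (31.3% of all genes tested), as in KIF18B (−2.32, SE 0.10, adjusted p = 9.9e-13), KIFC1 (−2.03) and KIF2C (−2.01). Over 24 h in siELMO1 all 6 were called higher (28.0% of all genes tested), these 3 by 1.32, 1.30 and 1.40. Of 18 transport kinesins and light chains 15 were tested, of which 3 were lower and 7 higher than siNT (of all genes tested, 31.3% were called lower and 31.3% higher). KIF1C, a motor of vesicle transport, was at 57.9 ± 4.69 CPM in the siNT libraries (mean ± SD of 3), whereas siELMO1 had 317 ± 22.4 CPM and Mock 248 ± 3.56 CPM, so its 2.45 against siNT stood beside 0.35 against Mock. Of 16 other genes of the anaphase-promoting complex 11 were lower than siNT, beside the 31.3% of all genes, with a median of −0.21; the elongating enzyme UBE2S (−1.74), the inhibitor FBXO5 (−1.67) and ANAPC11 (−1.16) had the largest values.

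The counts of the remaining lists stand beside the same 31.3% of all genes lower and 31.3% higher than siNT at 0 h. Of 12 genes of condensin II and cohesin 10 were lower and 1 higher, with a median of −0.23, led by the cohesin protector CDCA5 (−1.82) and the condensin II subunits NCAPG2 (−1.79) and NCAPD3 (−1.39). Of 11 genes of the MuvB core and its partners 5 were lower and 2 higher, with a median of −0.16, led by LIN9 (−1.15), RBL1 (−0.92) and LIN54 (−0.89). Of 9 genes of the Greatwall pathway and of the phosphatase it restrains, which opposes CDK1, 5 were lower and 2 higher. These 9 thus include subunits of the phosphatase itself. The Greatwall kinase MASTL had −1.28 against siNT at 0 h. Over 24 h in siELMO1 MASTL rose by 2.44 (SE 0.11, adjusted p = 2.4e-12), more than any of the 55 genes, to 89 ± 1.53 CPM from 16.4 ± 1.72 CPM (mean ± SD of 3 libraries). Unlike most of the 55, it was also higher at 24 h in the controls, at 64.7 ± 13.2 CPM against 39.8 ± 1.70 CPM in siNT and 117 ± 2.63 CPM against 39.7 ± 1.34 CPM in Mock. PPP2R1B (−1.46) and ENSA (1.26) differed from siNT but had 0.03 and −0.27 against Mock. Of 17 genes of the furrow and abscission 5 were lower and 7 higher, with a median of 0.05; CIT (−1.70) and CEP55 (−1.67) were lower and MYH9 (1.33), the heavy chain of non-muscle myosin, was higher. Against Mock these 3 had −1.85, −2.03 and 0.39.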

How the data were processed

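Poly(A) RNA of 18 libraries was sequenced with a stranded kit. The authors aligned the reads to GRCh38 with STAR and quantified Gencode v44 genes with StringTie; the estimated counts per gene and per transcript that they deposited come from the StringTie script prepDE, which turns coverage into whole numbers, and are not scaled. Tool versions and the use of strand in counting are not given in the sources used here. All 18 columns were matched to samples by their labels.

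Genes with at least 100 counts in total and 1 CPM in a library were kept (15167). edgeR 4.0.16 (R 4.3.3) with TMM factors was fitted to all 18 libraries in 6 conditions without a block, and 12 comparisons were tested by the quasi-likelihood test, each adjusted by Benjamini-Hochberg over all genes. Levels are TMM-scaled CPM. Percent-of-control levels are means over the 3 libraries against the control mean. DESeq2 1.42.0 and limma-voom (limma 3.58.1), other scalings, filters and sample sets were alternatives. The replicates are described as biological; p-values measure only the spread between these libraries, whose counts differed beyond sampling noise in every pair.

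The replicate numbers were checked for pairing over 8397 genes: every same-numbered pair correlated above 0.1 in 2 of 15 pairs of conditions, Mock with siNT at 24 h and siNT with siELMO1 at 24 h.

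The 55 genes and the other lists were chosen with earlier results of these data known. Values in every library were given for 22 genes chosen for their role; the 2 largest and 2 smallest fold changes of a comparison and the genes not called were named too, and up to 3 genes of each other list, those with the largest fold change against siNT at 0 h.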

Additional observations from a re-analysis of the deposited data

Results flagged for a closer look

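The response to 24 h with poly(I:C) differed between the conditions by the interaction test of edgeR. Between siELMO1 and siNT 55 of the 55 genes had a higher response in siELMO1 (16.7% of all genes tested) and 0 a lower one. By DESeq2 or limma-voom 0 were lower, and 0 were at an unadjusted p under 0.05. The log2 differences were 2.50 for PKMYT1, 2.42 for CDK1, 0.85 for CKS2 and 0.29 for FZR1. Between siELMO1 and Mock 54 were higher (13.8% of all genes tested) and 0 lower, again with 0 lower by DESeq2, limma-voom or an unadjusted p under 0.05. The differences were 2.41 for PKMYT1, 1.95 for PBK and 0.53 for WEE1. Between siNT and Mock, which both fell, 1 was higher in siNT (14.9% of all genes tested) and 30 lower (16.0%), with −0.75 for CDC25C and −0.70 for CCNA2. The 3 differences share libraries and are not independent of one another.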

How the results depend on the processing

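Under 28 alternatives, 1282 of 1296 counts and medians over the 55 genes stayed within the spread or 1.5 times, and 14 moved; of 3080 log2 fold changes of single genes 18 lost their call and 25 gained one, and 0 that were called changed sign. The sign changed in 15 values of 4 genes near 0 and called in neither setting: KIF20A (−0.07 to 0.11 with each library left out) and NCAPH (−0.06 to 0.05) against siNT at 24 h, CDC25B (−0.04 to 0.04) against Mock at 24 h and WEE1 (−0.04 to 0.04) over 24 h in siELMO1. It also changed in 1 median, that of siELMO1 against siNT at 24 h (−0.05; −0.11 to 0.01). The median from 0 h to 24 h in Mock (−0.50) was −0.62 with library totals, a scaling that moved the median of all genes by −0.12, −0.57 with upper-quartile factors, and −0.58 to −0.47 with each library left out. The median of siNT against Mock at 0 h (−0.11) was −0.17 with library totals, −0.15 without siELMO1 0 h replicates 2 and 3 (added after seeing the data), and −0.17 to −0.11 with each library left out. The 9 genes higher in siNT than Mock at 0 h became 14 with only the groups compared and 5 to 10 with each library left out. With each library left out, the genes over 2-fold lower in siELMO1 at 24 h were 0 to 1 against siNT and 0 to 1 against Mock, and those higher than Mock 0 to 1. The cause of these shifts was not tested. CDC25C against siNT at 24 h also lost its call with library totals (adjusted p = 0.12, edgeR), filterByExpr (0.062), no filter (0.097) and only the groups compared (0.07), and CDK1 with no filter (0.081) and only the groups compared (0.085). With the replicate number as a block, 20 genes were lower than siNT at 24 h in place of 19 and 51 lower than Mock in place of 50; AURKA and PSRC1 were gained there, KIF23 in siNT against Mock at 0 h, and RACGAP1 and CDC25A in the siNT minus Mock response, with no call lost. Without siELMO1 0 h replicates 2 and 3, with 1 library left that is assumed to vary like the other conditions, 54 genes were lower than siNT at 0 h and 53 higher at 24 h in siELMO1. The lowest count of these genes in a library was 97, and the effect of depth was not tested.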
